A study of Mus musculus with 20 samples.

Results

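Fermt3, Neurl3, Abtb2, Uap1l1, Tspan3, Ano9 and Plxna3 are 7 protein-coding genes that differed between mice given tamoxifen by injection and mice given it on the skin, in keratinocytes sorted from ear and dorsal skin. They were chosen from the measured route differences themselves, and the genotype in which each was chosen is not recorded. It was inferred here from ranks: Fermt3, Abtb2 and Neurl3 held ranks 1, 2 and 3 by p-value among genes higher after injection in knockout mice (predicted genes and differences under 1 on the log2 scale passed over), Uap1l1 and Tspan3 held ranks 2 and 3 among genes lower there, and Ano9 and Plxna3 held ranks 1 and 2 among genes higher after injection in control mice. The p-values given for route differences of these genes come from the other genotype and count as independent of the choice only if this inference holds. They are 7 of the 25719 genes in the count table, and all 7 passed the filter on low counts that left 12424 genes. Just outside the choice, at rank 4, were D7Ertd443e (log2 fold change 2.26) beside Neurl3 (2.75), and Cd63 (-1.52) beside Tspan3 (-1.21).

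The study held 4 groups of 5 mice. All 20 mice carried the floxed Cyp11b1 L2/L2 alleles and all received tamoxifen on 5 consecutive days, with cells taken on day 6. The knockout mice (cKO) also carried K14-CreERTam, a Cre recombinase that tamoxifen activates and that acts in cells using the keratin 14 promoter, the basal keratinocytes. The controls were littermates without Cre. Cyp11b1 encodes the enzyme that completes glucocorticoid synthesis. In the topical groups, back hair was shaved and tamoxifen in ethanol was put on the ear (20 µl) and back (100 µl), at a concentration not given in the sources used here. In the systemic groups, 100 µl of a 10 mg/ml solution in oil and ethanol was injected into the peritoneum. Route, shaving, vehicle and dose therefore changed together and cannot be told apart, and no group went without tamoxifen. In each mouse, RNA of sorted cells was sequenced as a SmartSeq II library.

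The 7 genes belong to unrelated protein families. Fermt3 encodes kindlin-3, an adaptor that binds the tails of integrin beta chains and helps talin to activate them. It is best known from blood cells and platelets, whereas kindlin-1, from Fermt1, is the main kindlin of keratinocytes. Neurl3 encodes a RING-type ubiquitin ligase of the neuralized family. Abtb2 encodes a protein with ankyrin repeats and a BTB domain, a fold that many adaptors of Cullin 3 ubiquitin ligases share. Uap1l1 is a paralog of Uap1, the enzyme that makes UDP-N-acetylglucosamine in the hexosamine pathway. Tspan3 encodes a tetraspanin, one of a family of membrane proteins that gather integrins and other partners into membrane domains. Ano9 is an anoctamin, of a family that holds calcium-activated chloride channels and lipid scramblases. Plxna3 encodes a plexin, a receptor for class 3 semaphorins that works together with neuropilins.

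On GRCm38, per GENCODE M21, Fermt3 (ENSMUSG00000024965) spans chromosome 19 from 6998958 to 7019469 on the minus strand. Neurl3 (ENSMUSG00000047180) spans chromosome 1 from 36264597 to 36274679 on the minus strand, and Abtb2 (ENSMUSG00000032724) spans chromosome 2 from 103566310 to 103718423 on the plus strand. Uap1l1 (ENSMUSG00000026956) spans chromosome 2 from 25359889 to 25365682 on the minus strand, and Tspan3 (ENSMUSG00000032324) chromosome 9 from 56131725 to 56165477 on the minus strand. Ano9 (ENSMUSG00000054662) spans chromosome 7 from 141101212 to 141117806 on the minus strand, and Plxna3 (ENSMUSG00000031398) chromosome X from 74329066 to 74344689 on the plus strand. The exons of Fermt3 share 89 bases with those of Trpt1 on the other strand, and the library kit is not described as keeping strand. Levels are given as CPM, counts relative to library size scaled with TMM factors, which correct for differences in library composition, and differences as systemic minus topical on the log2 scale. A gene was called where its adjusted p was under 0.05. Trpt1 itself was at 2.54 to 2.87 CPM on average in the 4 groups, with route differences of -0.12 (SE 0.19) in controls and 0.037 (SE 0.20) in cKO, neither of them called.

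Windows of 300 bases that hold the transcription start, most of each lying before it, were taken from RefSeq (GRCm38.p6) for 5 of the 7 genes. The 4 printed here are those of the 3 genes ranked first by p-value among genes higher after injection in knockout mice and of Tspan3 as a gene that was lower after injection. Each is written 5′ to 3′ along the gene's strand, and capitals mark matches to the motifs searched.
Fermt3, chr19:7019420-7019719, minus strand: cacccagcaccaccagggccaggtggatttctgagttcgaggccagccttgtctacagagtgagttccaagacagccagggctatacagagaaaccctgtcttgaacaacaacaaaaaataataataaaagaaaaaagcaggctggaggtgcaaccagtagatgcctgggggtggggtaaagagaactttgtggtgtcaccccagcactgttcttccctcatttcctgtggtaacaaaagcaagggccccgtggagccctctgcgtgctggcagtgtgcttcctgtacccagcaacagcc
Neurl3, chr1:36273376-36273675, minus strand: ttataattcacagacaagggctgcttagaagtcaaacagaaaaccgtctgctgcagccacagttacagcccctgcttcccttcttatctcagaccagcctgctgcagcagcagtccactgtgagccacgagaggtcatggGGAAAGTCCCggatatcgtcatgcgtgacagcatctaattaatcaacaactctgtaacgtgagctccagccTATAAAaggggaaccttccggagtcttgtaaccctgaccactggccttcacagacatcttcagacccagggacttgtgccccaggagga
Abtb2, chr2:103566060-103566359, plus strand: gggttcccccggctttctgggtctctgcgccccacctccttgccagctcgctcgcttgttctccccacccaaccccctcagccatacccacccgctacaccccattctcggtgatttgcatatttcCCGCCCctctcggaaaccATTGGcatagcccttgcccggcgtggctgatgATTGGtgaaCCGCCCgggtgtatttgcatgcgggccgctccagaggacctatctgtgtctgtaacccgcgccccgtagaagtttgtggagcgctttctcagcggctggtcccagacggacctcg
Tspan3, chr9:56161021-56161320, minus strand: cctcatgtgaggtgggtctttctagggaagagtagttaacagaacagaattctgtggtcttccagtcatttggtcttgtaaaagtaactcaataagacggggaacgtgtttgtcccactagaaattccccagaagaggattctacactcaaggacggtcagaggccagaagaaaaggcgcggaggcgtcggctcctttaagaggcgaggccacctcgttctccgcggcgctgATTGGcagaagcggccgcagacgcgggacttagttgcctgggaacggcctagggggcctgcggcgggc
Short motifs were searched on both strands in these windows and in 32851 windows of the same length. Neurl3 held the TATA box TATAAA, which starts 39 bases before the start site and occurs in 13.6% of all windows, and the NF-kappaB site on the minus strand, which occurs in 0.411% of all windows. Abtb2 held the CCAAT box CCAAT and the GC box GGGCGG at 2 places each, and Tspan3 held CCAAT once. CCAAT occurs in 37.4% of all windows and GGGCGG in 35.7%. Plxna3, whose window is not printed, held GGGCGG at 2 places, and the Fermt3 window held none of the motifs. The E-box CACGTG (7.15% of all windows), the AP-1 site TGANTCA (7.81%), the cAMP response element TGACGTCA (1.79%), the glucocorticoid response element (0.475%) and the interferon response element (3.44%) were in none of the 5 windows. No 2 of the motifs overlapped in the windows of these genes, and a match describes the letters in the window only. The RefSeq starts of Neurl3 and Tspan3 lie inside the spans that GENCODE gives these genes.

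Library totals ran from 11588851 to 50082771 counts, and the Pearson r of log2 CPM across genes was 0.948 to 0.991 in the 40 pairs of libraries of the same group. Markers of keratinocytes, 12 of 12 of which passed the filter, summed to between 77695 and 168483 CPM in every library. There were 6 libraries that stood apart from the other 14: all 5 systemic controls and systemic cKO 2, in which 12 satellite-like predicted genes together had 79.4 CPM or more, against at most 42.5 CPM elsewhere. The same 6 had Laptm4a at 8.89 to 19.8 CPM, against 40.2 to 118 CPM in the others. In controls this split is the same as the route, so the split and the route cannot be told apart there. In cKO it concerns 1 library, and route differences in cKO are therefore given with and without systemic cKO 2.

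**Figure D1:**
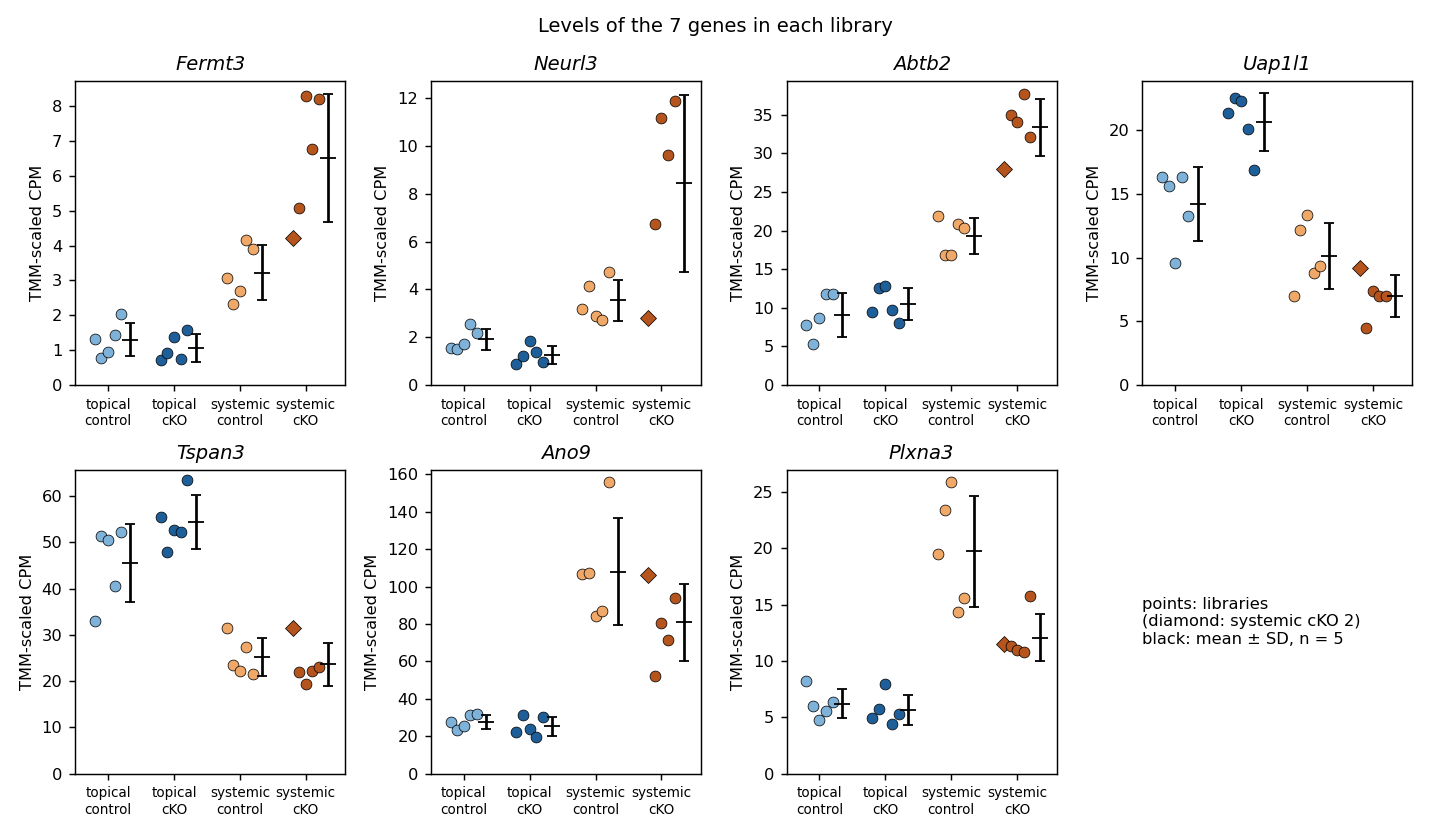
TMM-scaled CPM of each gene (y axis, linear, from 0) in the 4 groups (x axis), with 1 point per library, a diamond for systemic cKO 2, and the mean ± SD of 5 libraries in black. In 6 of the 7 genes no systemic library overlapped a topical library of the same genotype in either genotype, and Uap1l1 overlapped in controls. This includes the genotype that, by rank, chose each gene. Of all 12424 genes, 13.8% had no overlap in controls and 7.39% in cKO.

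Fermt3 was low in skin-treated mice and higher after injection in both genotypes. The 5 topical controls had 0.789, 0.956, 1.31, 1.43 and 2.03 CPM, and the 5 systemic controls had 2.32, 2.70, 3.06, 3.91 and 4.15 CPM. Topical cKO libraries had 0.705, 0.740, 0.922, 1.38 and 1.57 CPM, and systemic cKO libraries 4.23, 5.08, 6.77, 8.19 and 8.29 CPM. Every injected mouse was above every skin-treated mouse, and systemic cKO 2 was the lowest of its group. In controls, it rose 2.44-fold (log2 fold change 1.29, SE 0.28, adjusted p 0.00347, edgeR quasi-likelihood test). In cKO, where its rank placed the choice, the difference was 6.42-fold (log2 2.68, SE 0.29), and 2.80 without systemic cKO 2.

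Neurl3 was the gene with the widest spread relative to its mean among injected knockouts (SD 44.0% of the mean). Topical controls had 1.52, 1.56, 1.71, 2.18 and 2.57 CPM and systemic controls 2.72, 2.90, 3.19, 4.15 and 4.74 CPM, so that the groups stood side by side without overlap. The topical cKO libraries had 0.901, 0.958, 1.21, 1.38 and 1.85 CPM. Systemic cKO libraries had 2.82, 6.72, 9.61, 11.2 and 11.9 CPM, with systemic cKO 2 at the bottom, among the systemic controls, and the other 4 above all of them. The rise in controls was 1.88-fold (log2 0.91, SE 0.30, adjusted p 0.0389, edgeR). This call was lost in 6 of the 10 fits that left out 1 control library (topical control 1, 3, 5 or 7, or systemic control 3 or 6), where the adjusted p ran from 0.0568 to 0.111. In cKO, where the rank of Neurl3 placed the choice, the log2 difference was 2.75 (SE 0.31), and 2.97 without systemic cKO 2.

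Abtb2 rose after injection with little spread. Topical controls had 5.31, 7.72, 8.67, 11.8 and 11.9 CPM, and systemic controls 16.8, 16.9, 20.4, 20.8 and 21.8 CPM. Among cKO libraries, the topical ones had 8.02, 9.48, 9.68, 12.6 and 12.8 CPM, and systemic cKO libraries 27.9, 32.1, 34, 34.9 and 37.8 CPM. The systemic cKO range lay above all other groups, and the topical groups overlapped. The change in controls was 2.13-fold (log2 1.09, SE 0.18, adjusted p 4.37e-04, edgeR). In cKO it was 3.18-fold (log2 1.67, SE 0.18), given without a test, and 1.73 on the log2 scale without systemic cKO 2.

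Tspan3 was lower in injected mice. Topical controls had 33.1, 40.5, 50.4, 51.4 and 52.2 CPM, and systemic controls 21.5, 22.3, 23.5, 27.3 and 31.5 CPM. In cKO, the topical libraries had 47.8, 52.3, 52.7, 55.4 and 63.4 CPM, and systemic cKO libraries 19.4, 22.0, 22.1, 22.9 and 31.5 CPM. Each systemic group lay wholly below the topical group of its genotype, and the genotypes overlapped on either route. In controls the level fell by 0.85 on the log2 scale (SE 0.15, adjusted p 8.23e-04, edgeR). The cKO difference, given without a test, was -1.21 (SE 0.15), and -1.33 without systemic cKO 2.

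Uap1l1 was lower after injection in knockout mice and was not called in controls. Topical cKO libraries had 16.9, 20.1, 21.3, 22.3 and 22.5 CPM against 4.50, 7.002, 7.02, 7.34 and 9.16 CPM in systemic cKO, a difference of -1.57 (SE 0.19) that is given without a test and was -1.68 without systemic cKO 2. Topical controls had 9.56, 13.3, 15.6, 16.3 and 16.4 CPM and systemic controls 6.96, 8.79, 9.31, 12.2 and 13.4 CPM. The control ranges overlapped. The log2 difference in controls was -0.49 (SE 0.19, adjusted p 0.0722, edgeR), and it was called without topical control 5 (-0.60, adjusted p 0.0301) or without systemic control 4 (-0.61, adjusted p 0.0402).

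Ano9 and Plxna3 ranked among the first 3 only in controls, so the test is given in cKO mice, where their ranks were 11 and 84. Ano9 had 23.1, 25.3, 27.4, 31.5 and 31.7 CPM in topical controls and 84.1, 86.8, 106, 107 and 156 CPM in systemic controls, a log2 difference of 1.96 (SE 0.20) given without a test. Topical cKO libraries had 19.7, 22.5, 23.7, 30.2 and 31.2 CPM, and systemic cKO libraries 52.5, 71.2, 80.5, 93.8 and 106 CPM. The rise in cKO was 3.18-fold (log2 1.67, SE 0.20, adjusted p 3.09e-05, edgeR), and 1.55 on the log2 scale (adjusted p 4.02e-05) without systemic cKO 2, which was the highest of its group. The systemic ranges of the genotypes overlapped, as did the topical ones.

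Plxna3 had 4.78, 5.57, 6.05, 6.36 and 8.22 CPM in topical controls and 14.3, 15.6, 19.5, 23.4 and 25.9 CPM in systemic controls, a log2 difference of 1.66 (SE 0.19) given without a test. Topical cKO libraries had 4.37, 4.97, 5.31, 5.71 and 7.92 CPM, and systemic cKO libraries 10.8, 10.9, 11.3, 11.5 and 15.8 CPM. The ranges of the routes were apart in both genotypes, and in injected mice only systemic cKO 7 reached into the control range. In cKO the gene rose 2.15-fold (log2 1.11, SE 0.19, adjusted p 7.51e-04, edgeR), and by 1.12 without systemic cKO 2 (adjusted p 0.00120). Plxna3 lies on the X chromosome. By Y-linked transcripts, 10 of the mice were male, and with sex in the model the cKO difference was 1.11 (adjusted p 6.13e-04).

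Of the 5 genes whose ranks placed the choice in cKO mice, 4 were called in control mice (Fermt3, Neurl3 and Abtb2 higher, Tspan3 lower), where 18.3% of all 12424 genes were called (10.2% higher and 8.16% lower). Both genes placed in control mice were called in cKO mice, where 9.22% of all genes were called (5.19% higher and 4.02% lower). In the genotype where each gene was tested, the 2 routes did not overlap in 6 of the 7 genes, against 13.8% of all genes in controls and 7.39% in cKO. The sign of the route difference was the same in both genotypes for all 7. However, 1 of the 2 differences chose each gene, and the share over all genes is not given here. When the indicator of the 6 libraries that stood apart (satellite-like transcripts over 50 CPM) was added to the model, Fermt3 (log2 2.03, adjusted p 0.351), Neurl3 (2.71, adjusted p 0.0682), Abtb2 (1.41, adjusted p 0.320) and Tspan3 (-1.40, adjusted p 0.0796) were not called in controls, where 1 of 12424 genes was. Ano9 (1.55, adjusted p 4.11e-05) and Plxna3 (1.12, adjusted p 0.00120) stayed called in cKO. In controls the indicator equals the route and only systemic cKO 2 separates them, so the loss of calls there was largely set by the design. In cKO the indicator takes out systemic cKO 2, so these values nearly repeat the fit without that library.

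**Figure D2:**
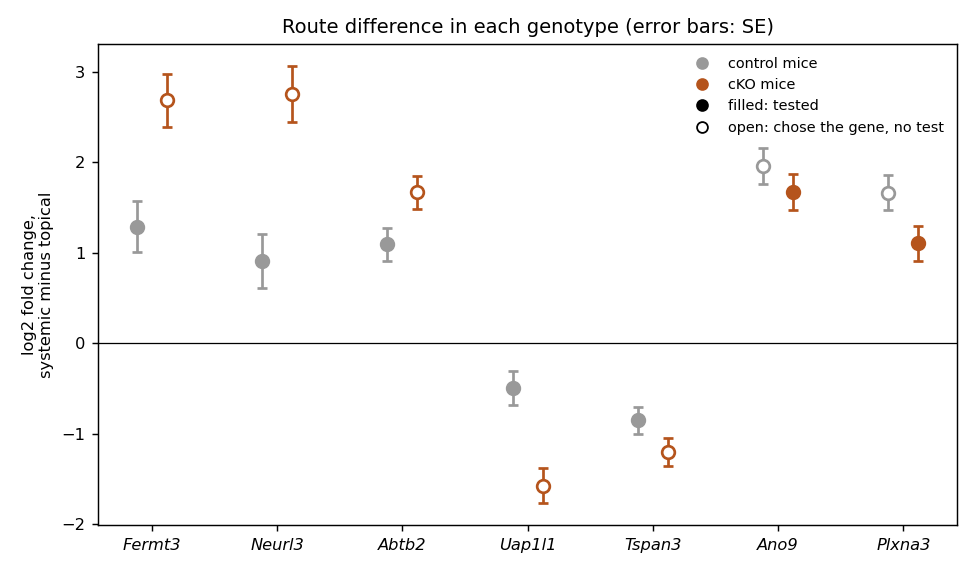
Log2 fold change between systemic and topical libraries (y axis) of each gene (x axis) in control mice (grey) and cKO mice (brown), with the SE of the fit as error bars. Filled points were tested, open points are of the genotype that, by rank, chose the gene; the 2 points of each gene lie on the same side of 0.

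The genotypes were compared over both routes, a contrast at right angles to the route differences. Of all genes, 0.314% (39 of 12424) were called, and none of the 7 was; without systemic cKO 2 the count over all genes was 138, and by DESeq2 105. Abtb2 had the largest difference, 1.41-fold higher in cKO (log2 0.50, SE 0.13, adjusted p 0.138, edgeR). It was called by the DESeq2 Wald test (adjusted p 0.0280) and by edgeR without systemic cKO 2 (0.53, adjusted p 0.0489). Plxna3 was at -0.43 (SE 0.13, adjusted p 0.273) and Ano9 at -0.27 (SE 0.14, adjusted p 0.684). Neurl3 (0.32, SE 0.21), Fermt3 (0.31, SE 0.20), Tspan3 (0.078, SE 0.11) and Uap1l1 (-0.0040, SE 0.13) had adjusted p-values from 0.802 to 0.9995.

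Within a route, the difference between genotypes shares libraries with the choice of the genes and is given without a test. On the skin-treated side the values of cKO minus control were small for most genes: Abtb2 0.21, Tspan3 0.25, Ano9 -0.13, Plxna3 -0.15 and Fermt3 -0.39 on the log2 scale, with SEs of 0.15 to 0.30. Neurl3 was at -0.60 (SE 0.32). Uap1l1 was at 0.54 (SE 0.19), with every topical cKO library above every topical control, as in 0.845% of all genes. After injection, Neurl3 was at 1.24 (SE 0.28), Fermt3 at 1.01 (SE 0.26) and Abtb2 at 0.79 (SE 0.18). Every systemic cKO library was above every systemic control for Fermt3 and Abtb2, as for 1.02% of all genes. In injected mice this comparison nearly coincides with the libraries that stood apart, all 5 controls and 1 of 5 cKO, and cannot be told apart from them. With their indicator in the model the difference between genotypes over both routes was -0.0020 for Fermt3 and -0.47 for Neurl3. For Abtb2 it was 0.37 or more in every alternative fit, this one included. The effect of the indicator is estimated only from systemic cKO 2 against the rest of its group, so these values rest on that library. Without the indicator, Plxna3 after injection was at -0.71 (SE 0.18), Uap1l1 at -0.54 (SE 0.19), Ano9 at -0.42 (SE 0.19) and Tspan3 at -0.099 (SE 0.15). The route difference in cKO minus that in controls was largest for Neurl3 (1.85, SE 0.43), Fermt3 (1.40, SE 0.40) and Uap1l1 (-1.08, SE 0.27). With the indicator in the model, the route differences in controls and in cKO were 2.71 and 2.97 for Neurl3, 2.03 and 2.80 for Fermt3, and -1.002 and -1.68 for Uap1l1. The shift of the control values comes from systemic cKO 2 alone and cannot show what the split contributes. These differences between genotypes in the route response were not tested, because a route difference chose each gene.

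By order of level, Fermt3 and Neurl3 ran from systemic cKO through systemic control and topical control down to topical cKO, with overlapping topical ranges. Abtb2 ran in the same order except that topical cKO stood above topical control within their spread. Uap1l1 had the order topical cKO, topical control, systemic control, systemic cKO, in which the last 3 overlapped between neighbours. Ano9 and Plxna3 were highest in systemic control, then systemic cKO, with the topical groups not apart. Per kilobase of exon, Ano9 had the highest level of the 7 after injection, 24.5 ± 6.50 CPM per kb in controls (SD, n = 5), and Tspan3 the highest on the skin-treated side, 10.7 ± 1.97 CPM per kb in controls. Fermt3 was the lowest in both, at 0.225 ± 0.0835 and 0.558 ± 0.135 CPM per kb.

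Because Fermt3 is known from blood cells, markers of such cells were read beside it. The 8 leukocyte genes summed to between 0.819 and 3.31 CPM in topical libraries and between 1.02 and 3.79 CPM in systemic libraries, less than Fermt3 alone in every systemic cKO library. None of them was called between routes in either genotype, and 1 of 8 passed the filter. Ptprc, which marks all leukocytes, had at most 4 counts in a library, and Itgb2, the integrin beta chain of leukocytes, had at most 4. Of 6 platelet genes, Pf4 and 1 other had no count in any library and Gp9 had at most 1. The platelet list summed to between 4.57 and 17.8 CPM, most of it Gp1bb, and neither of the 2 genes tested was called. Gp1bb was at 0.79 in cKO (adjusted p 0.0953, edgeR) and 0.17 in controls (adjusted p 0.716). The 8 genes of Langerhans and myeloid cells summed to 19.6 to 32.1 CPM in systemic cKO, wholly above the 10.1 to 18.9 CPM of topical cKO, and to 11.4 to 26.1 CPM in systemic and 8.05 to 17.6 CPM in topical controls. None of the 3 tested was called, with Cd74 at 0.93 in cKO (adjusted p 0.0621) and 0.45 in controls (adjusted p 0.329), and the part of these cells in the route difference of Fermt3 was not tested. Lists of T cells, neutrophils, endothelium and fibroblasts summed to at most 30.9 CPM in any library. Of these lists, 1 of 6, 2 of 6, 5 of 6 and 5 of 7 genes passed the filter, in that order. No tested gene was called in either genotype, and the other genes could not be called. S100a8 was at -2.78 in cKO (adjusted p 0.0556, edgeR), Pecam1 at -1.43 (adjusted p 0.0759) and Dcn at -1.30 (adjusted p 0.0768). Their control values were 0.68, -0.59 and -0.29 (adjusted p 0.620, 0.427 and 0.697). In sorted bulk samples, fewer cells of a type and less RNA per cell cannot be told apart.

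**Figure D3:**
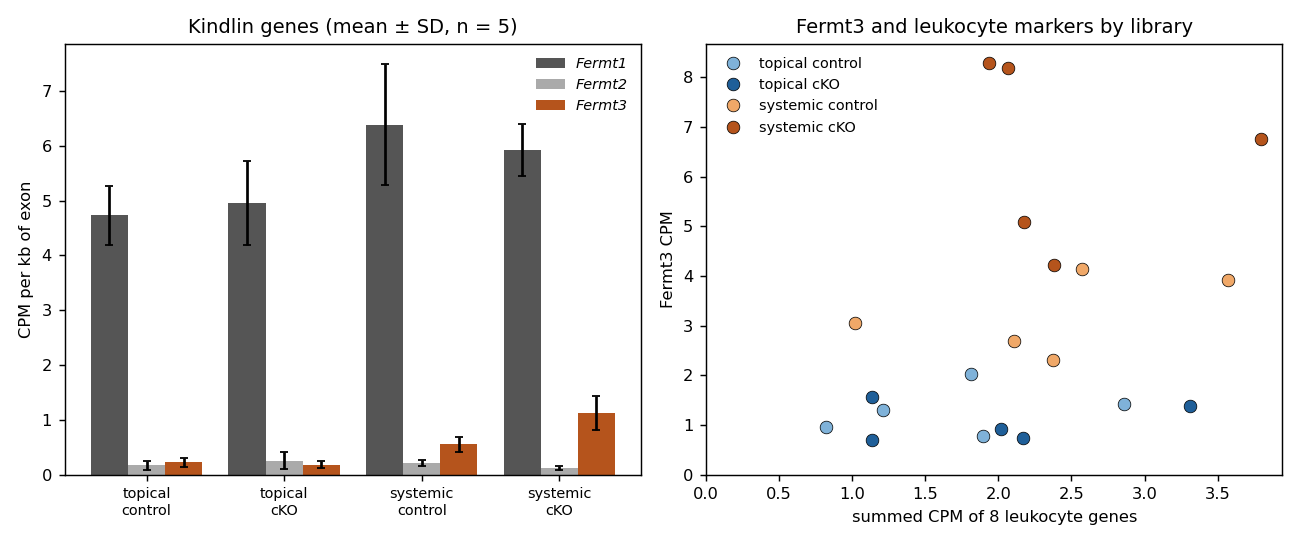
Left, CPM per kilobase of exon (y axis) of the kindlin genes Fermt1, Fermt2 and Fermt3 in the 4 groups (bars: mean, error bars: SD, n = 5). Right, Fermt3 CPM (y axis) against the summed CPM of 8 leukocyte genes (x axis) in each of the 20 libraries; the systemic cKO points stand at 4.23 to 8.29 CPM of Fermt3 while their leukocyte sums are 1.93 to 3.79 CPM, against 0.819 to 3.31 CPM in topical libraries.

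Among the genes that work with kindlins in integrin activation, 20 of 24 passed the filter, and 3 were higher and 1 lower after injection in controls, where 10.2% of all genes were higher and 8.16% lower. In cKO none was higher and 1 was lower, against 5.19% and 4.02% of all genes. Talin 1 (Tln1) rose by 0.71 in controls (SE 0.15, adjusted p 0.00254, edgeR), and Rasgrp2, which activates the integrin regulator Rap1, by 1.60 (SE 0.36, adjusted p 0.00421). Their lowest values over the alternative fits were 0.37 and 0.11. Parva, which encodes an actin-binding partner of integrin-linked kinase, fell by 0.65 in controls (adjusted p 0.0100) and by 0.67 in cKO (adjusted p 0.0128, and 0.0501 without topical cKO 5). The kindlin of keratinocytes, Fermt1, was at 4.73 ± 0.541 CPM per kb in topical controls and 6.38 ± 1.10 in systemic controls (SD, n = 5). The call of its rise of 0.43 (adjusted p 0.0304, edgeR) was lost without topical control 3 or 7 or systemic control 3 or 4 (adjusted p 0.0540 to 0.103). It held in 6 of 10 alternative fits. Fermt2 was not called in controls (0.36, SE 0.39, adjusted p 0.554) or in cKO (-1.14, SE 0.39, adjusted p 0.0707). The list's median difference was 0.37 in controls and 0.058 in cKO, against 0.00081 and -0.013 over all genes.

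The other neuralized and mind bomb genes, which encode ubiquitin ligases for Notch ligands and related targets, all 6 passed the filter. In controls 2 were higher and none lower (10.2% and 8.16% of all genes): Neurl4, at 1.32 (SE 0.30, adjusted p 0.00446), and Mib2, at 0.99 (SE 0.16, adjusted p 3.09e-04). In cKO none of the 6 was called, with Neurl4 at 0.53 (adjusted p 0.297) and Mib2 at 0.45 (adjusted p 0.0750). Of 7 tested genes for BTB proteins near Abtb2 and for Cullin 3 parts, 1 was higher and none lower in controls (10.2% and 8.16% of all genes). It was Btbd11, the close paralog of Abtb2, at 0.55 (SE 0.13, adjusted p 0.00647, edgeR) and at its lowest 0.073 over the alternative fits. None of the 7 was called in cKO (9.22% of all genes). Abtb1 was at 0.40 in controls (adjusted p 0.0533) and 0.30 in cKO (adjusted p 0.208).

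In the hexosamine pathway, 12 of 14 genes were tested. In controls 4 were higher and 1 lower (10.2% and 8.16% of all genes), and in cKO none was higher and 2 were lower (5.19% and 4.02%). Uap1, the paralog of Uap1l1, rose by 1.15 in controls (SE 0.35, adjusted p 0.0273, edgeR), a call lost without topical control 1 or 5 or systemic control 4 (adjusted p 0.0531 to 0.119). This call held in 6 of 10 alternative fits. In cKO Uap1 was at 0.41 (SE 0.35, adjusted p 0.521). Per kilobase, Uap1 was at 12.7 ± 3.82 CPM and Uap1l1 at 3.49 ± 0.71 CPM in topical controls (SD, n = 5). Ogt, the transferase that puts N-acetylglucosamine on intracellular proteins, rose by 1.02 in controls (adjusted p 0.0199, edgeR). The adjusted p was 0.050 to 0.0666 without topical control 1 or 3 or systemic control 3 or 6. Over the alternative fits its lowest rise was 0.095. Gnpda1, which turns glucosamine phosphate back into fructose phosphate, fell by 0.90 in controls (adjusted p 0.00379) and by 0.99 in cKO (adjusted p 0.00277). Gnpnat1, an acetyltransferase of the pathway, fell by 0.57 in cKO (adjusted p 0.0498), a call lost in 9 of 10 fits that left out 1 cKO library, all but that without systemic cKO 2 (adjusted p up to 0.134, without topical cKO 5).

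Of the tetraspanins, 16 of 28 were tested, and 4 were lower after injection and none higher in controls (8.16% and 10.2% of all genes), while 2 were higher and 2 lower in cKO (5.19% and 4.02%). Cd63, a tetraspanin of lysosomes and secretory vesicles, fell by 1.11 in controls (SE 0.20, adjusted p 7.62e-04) and by 1.52 in cKO (SE 0.20, adjusted p 7.00e-05), from 139 ± 13.4 to 64.3 ± 18.8 CPM and from 176 ± 38.6 to 61.5 ± 10.2 CPM (SD, n = 5). Cd151, a partner of laminin-binding integrins, fell by 0.88 in controls (adjusted p 0.00137, edgeR) and was at -0.11 in cKO (adjusted p 0.759). Its weakest control value over the alternative fits was -0.027. Tspan8 rose by 3.30 in cKO (SE 0.43, adjusted p 6.23e-05), from 2.40 ± 1.27 to 22.4 ± 9.29 CPM, and was at 0.84 in controls (adjusted p 0.142). Cd82 rose by 1.97 in cKO (SE 0.29, adjusted p 1.98e-04) and was at -0.17 in controls (adjusted p 0.714). Tspan4 fell by 1.02 in cKO (adjusted p 0.0181), a call lost without topical cKO 3 or 5 or systemic cKO 5 (adjusted p 0.0526 to 0.0584).

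Of the anoctamins, 5 of 9 were tested. In controls none was higher and 1 was lower (10.2% and 8.16% of all genes), and in cKO 2 were higher and 1 was lower (5.19% and 4.02%). Ano1, a calcium-activated chloride channel, fell in both genotypes while Ano9 was higher: by 0.74 in controls (SE 0.15, adjusted p 0.00200) and by 0.77 in cKO (SE 0.15, adjusted p 0.00181). Ano7 (1.27, adjusted p 0.00416) and Ano10 (1.004, adjusted p 0.00242) rose in cKO, and in controls they were at 0.27 and 0.053 (adjusted p 0.510 and 0.880). Of the plexin, neuropilin and semaphorin genes, 18 of 30 were tested, 6 were higher in controls (10.2% of all genes), 3 were higher in cKO (5.19%), and none was lower in either (8.16% and 4.02%). Sema3c, which encodes a secreted class 3 semaphorin, rose by 1.11 in controls (SE 0.21, adjusted p 0.00115) and by 1.03 in cKO (SE 0.21, adjusted p 0.00273). The plexin Plxnb1 rose by 0.71 in controls (adjusted p 0.00283), and Plxna1 by 0.70 (adjusted p 0.00610), whereas in cKO Plxna1 was at -0.14 (adjusted p 0.661). Sema3d rose by 1.05 in cKO (adjusted p 0.0201; 0.0543 without topical cKO 7 and 0.0754 without systemic cKO 6).

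Over the 7 lists, 23 of 84 genes were called in controls and 13 of 84 in cKO (18.3% and 9.22% of all genes), and no list gene was called between the genotypes over both routes (9 had an unadjusted p under 0.05, as did 951 of all 12424 genes, and DESeq2 called 1). With the indicator of the 6 libraries that stood apart in the model, none of the 84 was called in controls, and 11 had an unadjusted p under 0.05 (edgeR). In controls the indicator equals the route, so this fit cannot tell them apart.

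**Figure D4:**
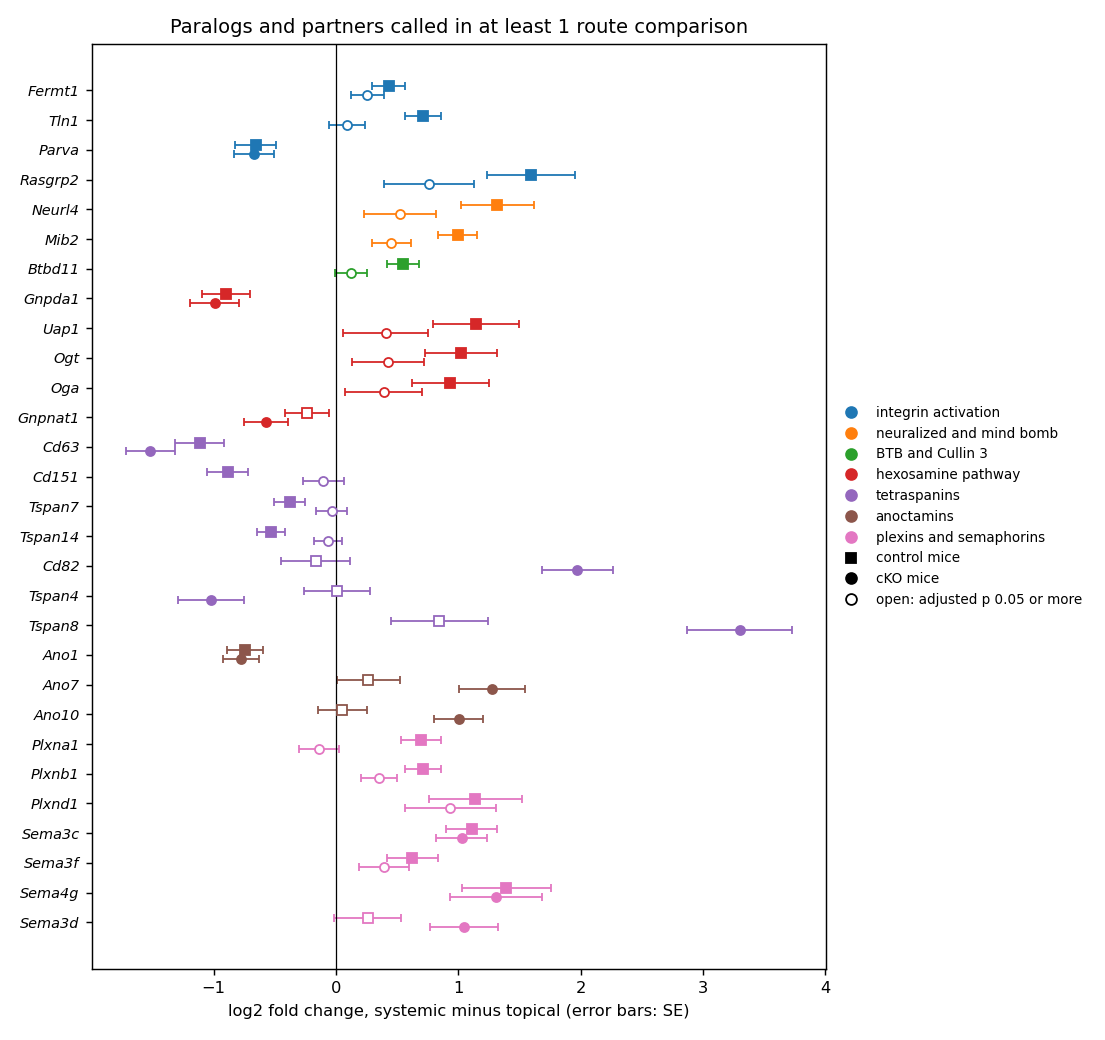
Log2 fold change between systemic and topical libraries (x axis, error bars: SE) of 29 list genes (y axis) called in at least 1 genotype, squares for control mice and circles for cKO mice, filled where the adjusted p was under 0.05, coloured by list. Cd63, Ano1, Parva and Gnpda1 lie below 0 and Sema3c and Sema4g above 0 with both symbols filled.

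Over the 20 libraries, the genes whose levels ran most like a member were found by Pearson r of log2(CPM + 1), a measure that the groups and the shared libraries set in large part. Krt23, a keratin, and Fcho1, an endocytic adaptor, were among the 3 nearest to both Fermt3 (r 0.939 and 0.943) and Abtb2 (r 0.952 and 0.932). P2ry4, a nucleotide receptor, was the third for Fermt3 (0.939) and Smim24 for Abtb2 (0.929). Spag1 (0.954), B4galnt2 (0.941) and Slc6a19 (0.940) were nearest to Neurl3. Tspan3 ran with Rab31 (0.936), the water and glycerol channel Aqp3 (0.923) and Gpr35 (0.915), and Uap1l1 with Flcn (0.886), Adamtsl5 (0.883) and Dusp3 (0.863). Ano9 was nearest to Plekhn1 (0.953), Mroh6 (0.951) and Dop1b (0.934), and Plxna3 to Numa1 (0.943), Taf1a (0.932) and Clip2 (0.925).

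After the group means were subtracted, other genes came first. Homer2 (r 0.783) and Cyp2f2 (0.771) were then nearest to Fermt3, Cerk (0.842) and Fut2 (0.836) to Neurl3, and Nkd2 (0.830) and Aspg (0.803) to Abtb2. Lpar6 (0.859) and Pitpnm1 (0.831) were nearest to Uap1l1, Sec24b (0.793) and Cd44 (0.777) to Tspan3, Lin7b (0.922) and Nrip3 (0.846) to Ano9, and Slc25a42 (0.813) and Thap1 (0.760) to Plxna3. Among the members themselves, Fermt3 and Neurl3 had the highest residual r (0.60) and Neurl3 and Tspan3 the lowest (-0.54) of the 21 pairs over 20 libraries. Systemic cKO 2 was the lowest of its group for Fermt3 (4.23 CPM against 5.08 to 8.29) and Neurl3 (2.82 CPM against 6.72 to 11.9). For Tspan3 it was the highest (31.5 CPM against 19.4 to 22.9). The part of this library in the residual r of these pairs and of the nearest genes was not tested.

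Other transcripts also differed by route. Of 10 genes of the dissociation response, 4 were higher after injection in controls (10.2% of all genes) and 4 in cKO (5.19%), Fos and Egr1 in both, and the list summed to 20326 to 39305 CPM in topical and 29166 to 64148 CPM in systemic libraries. Of 10 genes of terminal keratinocyte differentiation, Flg2 was higher in controls and Lor, Flg2, Ivl, Cdsn and Klk5 in cKO, with sums of 9698 to 18413 CPM in topical and 6421 to 22817 CPM in systemic libraries. The hemoglobin gene Hba-a1 was higher by 1.02 in controls (adjusted p 0.0399, edgeR) and by 2.71 in cKO (adjusted p 5.22e-05), and the 5 erythroid genes summed to at most 7.63 CPM. It was the 1 erythroid gene that passed the filter. Of the untested ones in cKO, Hba-a2 averaged 0.223 CPM in topical and 0.594 CPM in systemic libraries. Hbb-bs averaged 0.131 and 0.0957 CPM, Hbb-bt 0.0588 and 0 CPM, and Alas2 0.138 and 0.0418 CPM. In controls, lists of other skin cells also held calls: Postn of the hair follicle list fell by 2.61 (adjusted p 0.0168) and Elovl6 of the sebaceous list by 1.48 (adjusted p 0.0418), and Pmel of melanocytes (0.77, adjusted p 0.0142) and the keratinocyte genes Krt15 (1.25, adjusted p 0.00922) and Dsg3 (0.77, adjusted p 0.0254) rose. None of these 5 was called in cKO (adjusted p 0.0686 to 0.882, edgeR). The part of these transcripts in the route differences of the 7 genes was not tested.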

How the data were processed

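RNA of sorted keratinocytes was measured in 20 mice, 5 in each of 4 groups taken from the sample titles. The authors deposited 1 table of raw counts, whole-number reads per gene; per the submitters' processing notes it was made with STAR and featureCounts on GRCm38 (mm10), and versions and strand settings are not given in the sources used here. A single model over the 20 libraries was fitted (edgeR 4.0.16, R 4.3.3) with TMM, filterByExpr (minimum count 10, minimum total count 15), robust quasi-likelihood, 1 coefficient per group, two-sided tests, Benjamini-Hochberg adjustment over 12424 genes, called at an adjusted p under 0.05. The pipeline was tested on simulated data. The members and lists were chosen with earlier results of these data known. The genotype in which a member was chosen is not recorded and was inferred from its rank by p-value; route differences were tested in the other genotype, and their p-values are independent of the choice only if that holds. All members were tested between genotypes over both routes. Named were all members, of each family list up to 2 called genes per direction and route comparison with the smallest adjusted p, the closest paralogs, and the 3 (with group means removed, 2) genes of highest r; marker genes were named after their values were seen. A few items that this rule or the ranks would name are not reported here. Alternatives were DESeq2 1.42.0 (size factors, Wald test), limma 3.58.1 voom with quality weights, other filters, a fit of the libraries compared, a replicate block, sex (Y-linked genes over 5 CPM), satellite-like transcripts, and leaving out each library. Counting error is the least error of each value: 3 counts, taken as a floor, were 0.0729 to 0.264 CPM. Promoters came from RefSeq GRCm38.p6; those of Uap1l1 and Ano9 were not used here.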

Additional observations from a re-analysis of the deposited data

Results flagged for a closer look

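Of 28 sets of 5 libraries, 1 per gene and group, 1 held a library far from the rest by Dixon's test at 95%: Plxna3 in systemic cKO 7, at 15.8 CPM, where the other 4 systemic cKO libraries had 10.8 to 11.5 CPM. Chance flags about 1 in 20 such sets.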

How the results depend on the processing

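With the indicator of the 6 libraries that stood apart in the model, 1 gene was called between routes in controls against 2277 without it (731 at an unadjusted p under 0.05, edgeR) and 1 between genotypes over both routes against 39. With the log2 of the satellite-like sum instead, these counts were 118 and 14, Neurl3 in controls lost its call (1.55, adjusted p 0.0878), and Fermt3 (1.69, adjusted p 0.0355), Abtb2 (1.32, adjusted p 0.0108) and Tspan3 (-0.98, adjusted p 0.0214) were called. Of the 84 list genes, 23 were called in controls, and 0 and 1 with these terms. In controls the indicator equals the route, and only systemic cKO 2 separates them in that fit. The voom fit called 3493 genes in controls, and DESeq2 called 105 between genotypes, 1 of them a list gene. Leaving out 1 library gave 1463 (without systemic control 3) to 2524 calls in controls, 746 (without topical cKO 5) to 1218 in cKO against 1145, and 31 to 138 (without systemic cKO 2) between genotypes; list genes called were 17 to 26, 9 to 16, and 0 to 2. Neurl3 in controls was not called when all genes with a count were tested (0.89, adjusted p 0.0509), and Uap1l1 was called there by voom (adjusted p 0.0183). Fermt3 and Neurl3 gave no value where a mean CPM of 5 or more was required.

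Differences between genotypes changed sign with the indicator for Fermt3 (-0.0020), Neurl3 (-0.47) and Uap1l1 (0.20), and for Uap1l1 with the log2 sum (0.12), with all genes with a count (0.0066) and without 1 library (-0.060 to 0.063); none of these was called. With the replicate number as a block, Tspan3 between genotypes was at -0.024, and in controls Fermt3 was at 1.46 (adjusted p 0.00130) and Neurl3 at 0.97 (adjusted p 0.0183); no call of the 7 genes changed. The numbers were not shown to pair mice: 9 of 20 pairs with the same number had residuals correlated above 0.1. Counting error limits Fermt3 and Neurl3 most, the lowest of the 7 in counts.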
